A study of Sus scrofa with 72 samples.

Results

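The CCAAT/enhancer-binding proteins C/EBPα, C/EBPβ and C/EBPδ, encoded by CEBPA, CEBPB and CEBPD, were followed in porcine synovial mesenchymal stem cells (SMSCs) during adipogenic culture. They were taken as the probe sets whose platform gene symbol is one of the 3 names, which gave 5 of 47845 probe sets. CEBPA had 2 probe sets, CEBPB 2 and CEBPD 1. Each gene is given by the probe set with the highest mean over all arrays, and the other one serves as a check. The cells came from 59-day-old male piglets of Angeln Saddleback (AS), a breed with high fat deposition, and German Landrace (DL), a breed selected for growth. The cells were taken from 2 tissues of the knee, the adipose synovium of the infrapatellar fat pad (FP) and the fibrous synovium of the joint capsule (FS). Cells were grown in adipogenic induction medium (AIM), a commercial kit, and collected on days 1, 4, 7 and 14, or in complete culture medium (CCM), a high-glucose medium with serum, and collected at the same times and at the outset. Day 0 in CCM is therefore the shared start of both courses. This gives 36 groups of 2 arrays each, and both arrays of a group come from separate cultures grown from a pool, which held passage 3 cells of 3 pigs per breed and tissue. There are 4 such pools, so p-values speak of cultures rather than of animals, and a breed or a tissue cannot be told apart from its pools.

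The C/EBP proteins bind DNA as dimers through a basic leucine zipper and pair with each other. In fat cell differentiation, as worked out mainly in mouse preadipocyte lines, C/EBPβ and C/EBPδ form the first wave. They respond within hours to glucocorticoid and cAMP-raising agents and switch on the genes of C/EBPα and of PPARγ, the nuclear receptor that directs fat cell formation. C/EBPα and PPARγ form the second wave, sustain each other's expression and activate genes of lipid storage and insulin response. In mouse, C/EBPβ and C/EBPδ also act in the acute phase and inflammatory response.

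Values are log2 intensities, so that a difference of 1 is a doubling. Before any comparison, 4 arrays were left out. These are the second replicates labelled AS FP on day 7 in AIM and in CCM, DL FP on day 0, and DL FS on day 1 in CCM. Of 19 group means that could be set against the study's additional tables, 6 differed by more than 0.001 under the deposited labels and 0 did once the arrays were exchanged within 2 pairs. The other 68 arrays were used, and values with all 72 arrays stand beside the differences between the media, the early steps, the comparisons within pools and the calls that they change. The 4 groups concerned rest on 1 array each, and a standard error there takes its spread from the other groups, so the lone array is assumed to vary like them. The main probe sets were above the median of the array on all 72 arrays, and at least 2.35 above the mean of the background controls. The second CEBPA probe set exceeded the array median on 4 arrays only and was not tested. Of 8 stromal markers 7 had a probe set, and each of them was more than 1 above the background controls in every medium and day. Among leukocyte markers, 2 of 4 measured genes were so throughout, and among endothelial markers 1 of 5 in AIM and 2 or 3 of 5 in CCM.

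The genes followed different courses. CEBPD differed between the media on day 1 alone, while CEBPA and CEBPB were higher in AIM from day 4 on. CEBPB was also higher in AIM by 0.34 on day 1, a call that was lost in some settings. No cultures were collected between day 0 and day 1, so a change within the first hours could not be seen. The array values of the 3 genes by day and medium are plotted first.

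**Figure D1:**
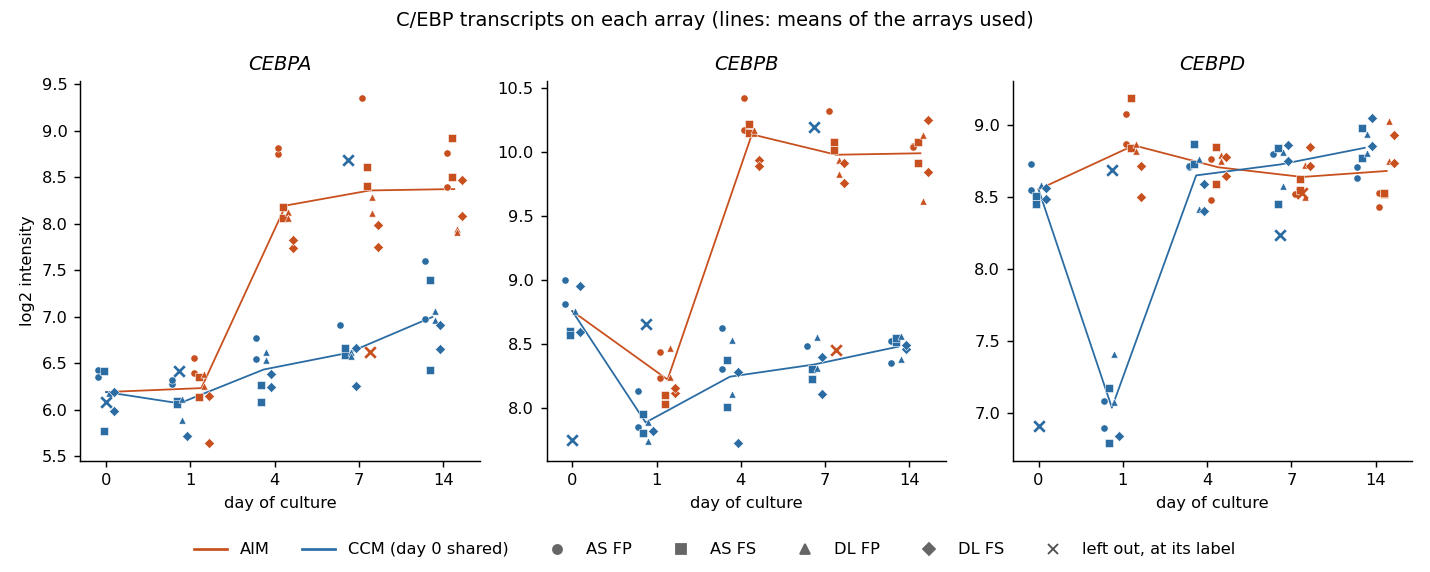
Log2 intensity of CEBPA, CEBPB and CEBPD (vertical axis, a separate scale for each gene) against the day of culture (categories). Points are arrays, with symbols for breed and tissue, lines join the means of the arrays used in AIM (orange) and CCM (blue), and crosses are the 4 left-out arrays drawn at their labels. CEBPD lies between 6.79 and 7.41 in CCM on day 1 and at 8.40 or higher in all other arrays used.

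CEBPD, the partner of C/EBPβ in the first wave, fell in control cells on day 1 and came back by day 4. On day 0 its 7 arrays read from 8.45 to 8.73 with a median of 8.54. On day 1 the 7 CCM arrays read 6.79 to 7.41 (median 7.07), and the 8 AIM arrays read 8.50 to 9.19 (median 8.86). All AIM arrays were above all CCM arrays on that day, and the CCM arrays were also below every array of day 0. The difference between the media, averaged over the 4 pools with equal weight, was 1.85 ± 0.08 (SE) on the log2 scale, a 3.60-fold higher level in AIM (limma, adjusted p = 2.1e-19). This was the difference of rank 52 from the top among 18335 tested probe sets, of which 28.0% passed at an adjusted p of 0.01 on day 1. With all 72 arrays as labelled it was 1.62 (adjusted p = 3.3e-10).

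Counted from the shared day 0, the larger step to day 1 was that in CCM. In CCM, CEBPD fell by 1.55 ± 0.09 from day 0 to day 1 (adjusted p = 1.0e-16, 31.8% of probe sets passing) and rose by 1.64 ± 0.08 from day 1 to day 4 (adjusted p = 8.9e-19, 37.1% passing). With all 72 arrays these steps were -1.10 and 1.41, and both passed (adjusted p = 3.1e-06 and 3.0e-09). In AIM the step from day 0 to day 1 was 0.30 ± 0.08 (adjusted p = 0.0028, 38.0% passing), and that to day 4 was -0.15 ± 0.08 (adjusted p = 0.095, 48.7% passing). The small AIM step of day 1 lost its call with all 72 arrays (0.51, adjusted p = 0.011) and when some single cultures were left out. It was 0.25 without AS FP replicate 1 (adjusted p = 0.034), 0.25 without AS FS replicate 1 (0.022) and 0.28 without DL FS replicate 2 (0.019). Of the 18335 probe sets, 583 (3.18%) fell in CCM to day 1, rose again to day 4 and were higher in AIM on day 1. Among these 583, 80 (0.436% of the 18335) passed between the media on no later day, as did CEBPD. The pattern restates the calls of CEBPD, so these shares carry no test.

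From day 4 on, the media overlapped in CEBPD. The 8 AIM arrays of day 4 read 8.48 to 8.85 and the 8 CCM arrays 8.40 to 8.87. At day 7 they read 8.50 to 8.84 and 8.45 to 8.86, and at day 14 they read 8.43 to 9.03 (median 8.63) and 8.63 to 9.05 (median 8.83). The differences at days 4, 7 and 14 were 0.06 ± 0.08 (adjusted p = 0.56), -0.11 ± 0.09 (0.30) and -0.16 ± 0.08 (0.080). On these days 49.1%, 45.0% and 48.5% of all tested probe sets passed between the media.

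CEBPB, the other factor of the first wave, took a different course. It was high at the start, with 7 arrays between 8.57 and 9.00 (median 8.76). On day 1 it read 8.03 to 8.47 (median 8.19) in AIM and 7.74 to 8.13 (median 7.85) in CCM. Every array of day 1, in either medium, was thus below every array of day 0. The fall was 0.54 ± 0.09 in AIM (adjusted p = 7.4e-06) and 0.88 ± 0.10 in CCM (adjusted p = 2.1e-09). With all 72 arrays as labelled these steps were -0.41 (adjusted p = 0.070) and -0.65 (0.0063), so that the step in AIM then missed the threshold. The media groups overlapped on day 1, and AIM was higher by 0.34 ± 0.09 (1.27-fold, adjusted p = 0.0033). This call was lost with all 72 arrays (0.24, adjusted p = 0.37), on the second CEBPB probe set (0.30 ± 0.10, adjusted p = 0.012) and without any one of the cultures AS FP replicate 1, AS FS replicate 1, AS FS replicate 2 or DL FP replicate 2 (0.29 to 0.35, adjusted p between 0.015 and 0.025).

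Between day 1 and day 4, CEBPB rose in AIM by 1.92 ± 0.09 (3.79-fold, adjusted p = 1.1e-20) to 9.89 to 10.42 with a median of 10.16. In CCM it reached 7.72 to 8.62 on the same day (median 8.29), a step of 0.36 ± 0.09 (adjusted p = 0.0013). The CCM step lost its call with all 72 arrays (0.26, adjusted p = 0.28), without AS FS replicate 2 (0.34, 0.018) and without DL FP replicate 2 (0.29, 0.020). No array of one medium overlapped with the other from this day on. On day 7 the AIM arrays read 9.76 to 10.32 (median 9.94) against 8.11 to 8.55 in CCM. The values of day 14 were 9.62 to 10.26 (median 10.04) against 8.35 to 8.56. The difference between the media was 1.90 ± 0.09 at day 4 (3.73-fold, adjusted p = 1.7e-20), 1.67 ± 0.10 at day 7 (3.18-fold, 3.0e-17) and 1.51 ± 0.09 at day 14 (2.86-fold, 1.5e-17). That of day 4 ranked 393 from the top among all tested probe sets. With all 72 arrays the day 7 difference was 1.22 and still passed (adjusted p = 1.0e-06). The second CEBPB probe set gave 1.64, 1.51 and 1.41 on these days and followed the first with r = 0.98 over the 36 group means. In CCM all arrays of day 14 (8.50 at the median) were still under all arrays of day 0, a difference that was not tested.

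CEBPA, the factor of the second wave, gave no call over the first day, with steps of 0.04 ± 0.12 in AIM (adjusted p = 0.80) and -0.16 ± 0.12 in CCM (0.32), or 0.06 and -0.06 with all 72 arrays. The 7 arrays of day 0 read 5.77 to 6.42 (median 6.19), the 8 AIM arrays of day 1 read 5.64 to 6.56 (median 6.30) and the 7 CCM arrays 5.72 to 6.32 (median 6.09). These groups overlapped, and the difference between the media on day 1 was 0.21 ± 0.12 (adjusted p = 0.18), or 0.12 with all 72 arrays (0.75). From day 1 to day 4 CEBPA rose in AIM by 1.96 ± 0.11 (3.90-fold, adjusted p = 3.9e-18).

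On day 4 the AIM arrays read 7.74 to 8.82 (median 8.10) and the CCM arrays 6.09 to 6.77 (median 6.46). The values of day 7 were 7.75 to 9.35 (median 8.29) and 6.26 to 6.91 (median 6.63). Those of day 14 were 7.91 to 8.92 (median 8.43) and 6.43 to 7.59 (median 6.97). The lowest AIM array was above the highest CCM array each time, by the least margin at day 14. The difference between the media was 1.76 ± 0.11 at day 4 (3.39-fold, adjusted p = 1.0e-16, rank 447 from the top), 1.83 ± 0.12 at day 7 (3.57-fold, 1.1e-15) and 1.38 ± 0.11 at day 14 (2.60-fold, 1.2e-13). With all 72 arrays that of day 7 was 1.27 and passed (adjusted p = 7.2e-06). The second CEBPA probe set, near background, gave 0.14, 0.09 and 0.31 without a filter, and of these only the last passed. The mean in CCM was 6.19 ± 0.24 (SD, n = 7) at the start and 7.00 ± 0.37 (SD, n = 8) at day 14. Of the steps between, that from day 1 to day 4 passed (0.41 ± 0.12, adjusted p = 0.0038). It missed the threshold with all 72 arrays (0.32, adjusted p = 0.27) and without AS FP replicate 1 (0.37, 0.021), DL FP replicate 1 (0.37, 0.040), DL FP replicate 2 (0.44, 0.013) or DL FS replicate 1 (0.34, 0.028).

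The change of the response from day 1 to day 4 was itself tested. The difference between the media grew by 1.56 ± 0.16 for CEBPA (adjusted p = 2.7e-10) and by 1.56 ± 0.13 for CEBPB (1.2e-12), and it fell by 1.79 ± 0.11 for CEBPD (1.4e-15), where 31.2% of probe sets passed. Between day 4 and day 7, and between day 7 and day 14, 2.37% and 2.33% of probe sets passed and none of the 3 genes did. Nor did any of them pass in the later steps within a medium, where 5.70% and 6.00% of probe sets passed in AIM and 0.191% and 1.75% in CCM. The largest of these response changes was that of CEBPA from day 7 to day 14, with -0.46 ± 0.16 (adjusted p = 0.098).

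Exact two-sided permutation tests shuffled the arrays freely, without keeping them within pools, and borrowed no spread from other probe sets. They gave the smallest p that such shuffling allows for CEBPA and CEBPB on days 4, 7 and 14 and for CEBPD on day 1. These were 1.6e-04 with 8 against 8 arrays, 5.8e-04 with 7 against 7 and 3.1e-04 with 8 against 7. For CEBPB on day 1 the exact permutation p was 0.0012, and for CEBPA it was 0.22. The within-array difference of a pair of genes was compared between the media in the same way, over 3 pairs and 4 days, which makes 12 tests. CEBPD responded otherwise than CEBPA and than CEBPB on all 4 days, with adjusted exact permutation p between 6.2e-04 and 8.7e-04. The responses of CEBPA and CEBPB differed by -0.17, -0.13, 0.10 and -0.14 on days 1, 4, 7 and 14 (adjusted exact permutation p between 0.17 and 0.55), which does not show that they were equal.

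Each pool was also compared on its own. The plot of the differences by pool shows how far the 4 pools were alike, with the widest spread for CEBPA from day 4 on.

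**Figure D2:**
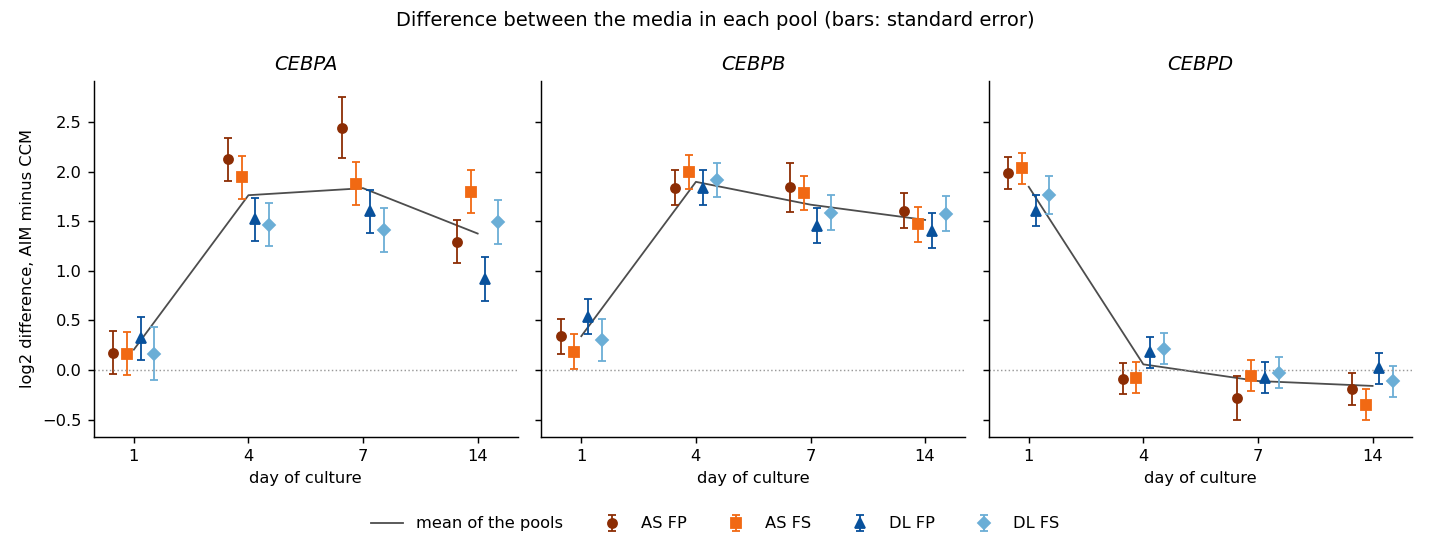
Log2 difference of AIM minus CCM (vertical axis, shared by the panels) for CEBPA, CEBPB and CEBPD on days 1, 4, 7 and 14 in each pool of breed and tissue. Symbols are fitted differences with their standard error, and the grey line is the mean over the pools. CEBPD lies between 1.60 and 2.04 on day 1 in all pools and near 0 later, while CEBPB lies between 1.41 and 2.00 from day 4 on. CEBPA spreads more, from 0.92 to 2.44 from day 4 on, and its highest symbol, AS FP on day 7, rests on 1 array in each medium.

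CEBPD passed on day 1 in all 4 pools. Its difference was 1.99 in AS FP (9.32% of probe sets passing), 2.04 in AS FS (8.21%), 1.60 in DL FP (9.45%) and 1.77 in DL FS (3.74%), where CCM rests on 1 array. The DL FS difference was 0.84 with all 72 arrays as labelled and did not pass (adjusted p = 0.12). CEBPA and CEBPB passed in all 4 pools on days 4, 7 and 14, and in no pool on day 1. The probe sets passing in AS FP, AS FS, DL FP and DL FS were 30.0%, 28.2%, 24.4% and 23.7% at day 4, 19.2%, 30.3%, 23.6% and 22.0% at day 7, and 25.7%, 29.4%, 21.3% and 27.0% at day 14. On day 7 the call in AS FP sets 1 array against 1, and with all 72 arrays as labelled it was lost for both genes, at 0.19 for CEBPA and 0.05 for CEBPB (adjusted p = 1 for both). CEBPA then passed in 3, 2 and 2 of the 4 pools on days 4, 7 and 14, and CEBPB in 4, 3 and 4. No left-out array is of day 4 or 14, so the values of those days were the same in both fits. All groups of a fit share a common spread, which the arrays with conflicting labels enter when all 72 are used. CEBPB ranged over the pools from 1.84 to 2.00 at day 4, 1.45 to 1.84 at day 7 and 1.41 to 1.61 at day 14. CEBPA ranged from 1.47 to 2.13 at day 4. At day 7 it was 2.44 ± 0.31 in AS FP, where each medium rests on 1 array, 1.88 in AS FS, 1.60 in DL FP and 1.41 in DL FS. On day 14 it was lowest in DL FP, with 0.92 ± 0.22 (adjusted p = 0.0012), and highest in AS FS, with 1.80 ± 0.22. The median gap between the 2 cultures of a group was 0.18 for CEBPA, 0.17 for CEBPB and 0.19 for CEBPD over 32 groups. The largest gap was 0.97, for CEBPA in AS FS in CCM on day 14.

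Breed was addressed in 27 comparisons, of 3 genes in 9 combinations of medium and day. Of these, 1 passed, and 6 had an unadjusted p under 0.05. It was CEBPA in AIM on day 7, where the 3 AS arrays read 8.41, 8.61 and 9.35 and the 4 DL arrays read 7.75, 7.99, 8.11 and 8.29. The AS arrays were all above the DL arrays, and the AS mean exceeded the DL mean by 0.89 ± 0.17 (1.85-fold, adjusted p = 4.4e-04, 8.84% of probe sets passing). The highest of them is the only AS FP array of that day. Without the culture AS FP replicate 1, which leaves AS FS against DL FS alone, the difference was 0.63 (adjusted p = 0.066), without DL FP replicate 1 it was 0.84 (0.010), with all 72 arrays as labelled it was 0.21 (0.79), and on the dim second probe set it was 0.26 (0.34). CEBPB at this point read 10.02 to 10.32 in AS and 9.76 to 9.94 in DL, without overlap, a difference of 0.33 ± 0.14 (adjusted p = 0.11).

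On the neighbouring days CEBPA in AIM gave positive differences that did not pass. On day 4 the AS arrays read 8.07 to 8.82 and the DL arrays 7.74 to 8.13, a difference of 0.51 ± 0.16 (adjusted p = 0.031, 4.75% passing). On day 14 they read 8.40 to 8.92 and 7.91 to 8.47, a difference of 0.54 ± 0.16 (adjusted p = 0.023, 4.07% passing). The breeds overlapped slightly on both days. Without AS FS replicate 2 the day 14 difference was 0.65 and passed (adjusted p = 0.0047). In CCM the CEBPA difference between the breeds was between -0.03 and 0.32 on days 1 to 14 (adjusted p between 0.48 and 0.94). In the other breed comparisons 0.894% of probe sets passed at day 0, 2.30% in AIM at day 1, and 1.17%, 3.10%, 1.15% and 1.64% in CCM at days 1, 4, 7 and 14. For CEBPD in AIM on day 14, the AS arrays at 8.43 to 8.53 did not overlap with the DL arrays at 8.73 to 9.03, and the difference of -0.36 ± 0.11 missed the threshold (adjusted p = 0.037).

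**Figure D3:**
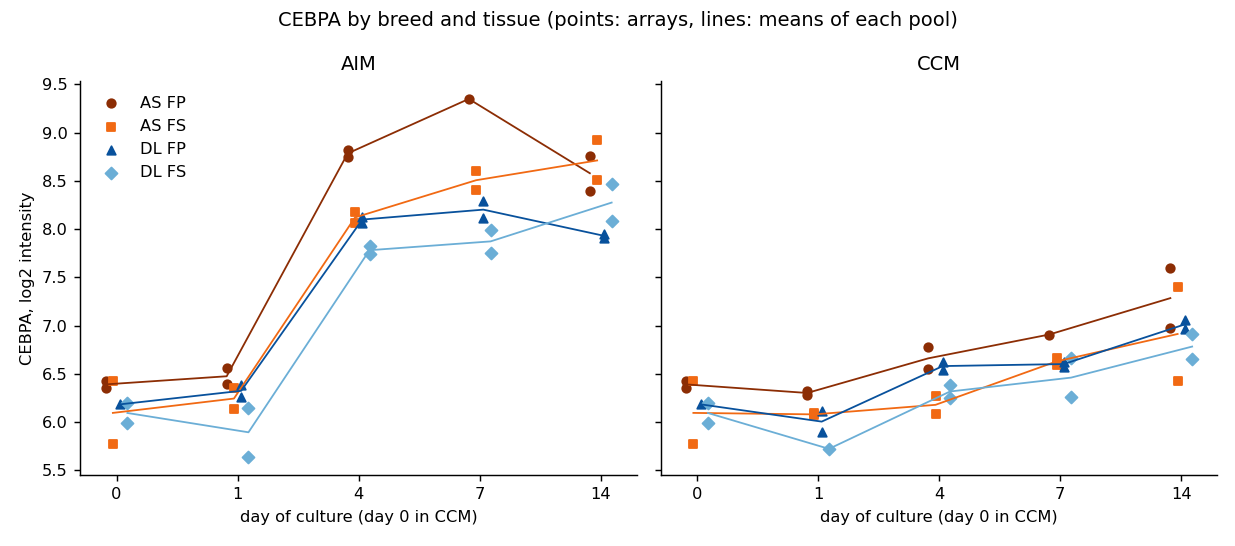
Log2 intensity of CEBPA (vertical axis, shared) against the day of culture in AIM (left) and CCM (right), with day 0 in CCM drawn in both. Points are the arrays used and lines join the means of each pool. In AIM on day 7 the AS arrays lie between 8.41 and 9.35, above the DL arrays at 7.75 to 8.29, and AS FP rests there on 1 array.

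Tissue gave no call. None of the 27 comparisons of FP with FS passed in limma, and 5 had an unadjusted p under 0.05. The smallest adjusted p was 0.10, for CEBPA in AIM on day 4, where FP exceeded FS by 0.49 ± 0.16. There the FP arrays read 8.07 to 8.82 and the FS arrays 7.74 to 8.18. The study itself reports significantly higher C/EBPα expression in FP than in FS. It names no day there, and it used all 72 arrays, a mixed model of repeated measures and another probe set filter. Of all probe sets, 0.409% passed at day 0, 0.305%, 0.731%, 0.322% and 0.584% in AIM at days 1, 4, 7 and 14, and 0.175%, 0.464%, 0.196% and 0.518% in CCM. The largest difference was that of CEBPA in AIM on day 7, where FP minus FS was 0.58 ± 0.17 (adjusted p = 0.12), and -0.10 with all 72 arrays (0.94). On day 14 it was -0.24 ± 0.16 (adjusted p = 0.53). The 24 tests of whether the difference between the media depended on breed or on tissue gave no call in limma either, with 3 unadjusted p under 0.05. Passing probe sets at days 1, 4, 7 and 14 were 0.0164%, 0.480%, 0.704% and 0.387% for breed, and 0.0%, 0.0327%, 0.0273% and 0.0927% for tissue. The breed dependence of CEBPA was 0.65 ± 0.24 on day 7 (adjusted p = 0.17), or -0.47 with all 72 arrays (0.77), and its tissue dependence was -0.54 ± 0.22 on day 14 (adjusted p = 0.35). A breed difference of CEBPA in AIM that was unlike that in CCM was therefore not shown.

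The other genes of the family took other courses. CEBPG encodes a short relative that lacks an activating domain and dimerises with other C/EBPs. It was lower in AIM on all 4 days (-0.38, -0.59, -0.48 and -0.39, adjusted p between 5.3e-12 and 1.3e-06). The AIM arrays of day 4 read 7.75 to 7.97 and the CCM arrays 8.17 to 8.68, with no overlap. Its second probe set was lower on day 1 (-0.37, adjusted p = 0.0079) and did not pass later (-0.19, -0.02 and -0.23). DDIT3, also called CHOP, is a stress-induced partner that keeps C/EBPs from their usual sites. It rose from day 0 to day 1 in both media, by 0.84 in AIM and by 1.71 in CCM (adjusted p = 1.0e-05 and 1.9e-11). It was lower in AIM on days 1, 4 and 7 (-0.87, -0.61 and -0.58, adjusted p = 8.0e-06, 2.7e-04 and 0.0016), and on day 14 the difference was 0.40 (adjusted p = 0.013). Of 16 alternative settings, 14 kept the call of day 7 and 3 gave one on day 14, all in the same direction as here. The response of DDIT3 changed from day 7 to day 14 by 0.98 ± 0.21 (adjusted p = 0.0029), and with all 72 arrays by 0.95, without a call (0.045).

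CEBPZ, a CCAAT-binding protein without the leucine zipper of the family, was lower in AIM on days 1, 4, 7 and 14 (-0.40, -0.56, -0.69 and -0.82). Its second probe set was below the filter, and its mean differences of 0.02, 0.39, 0.26 and 0.40 had the other sign, so the direction of CEBPZ depends on the probe set. CEBPE, which acts in granulocytes, gave no call, with differences between -0.14 and 0.26. Of the 7 genes of the family, 2 were higher and 3 lower in AIM on days 1, 4 and 7, and 2 were higher and 2 lower on day 14. Over all probe sets, 10.4%, 19.6%, 17.7% and 20.9% were higher and 17.6%, 29.5%, 27.4% and 27.7% lower on days 1, 4, 7 and 14. CEBPZ enters these counts as lower by its main probe set, and without it 2, 2, 2 and 1 of 6 genes were lower. The median difference of the family was 0.13, 0.06, -0.14 and 0.15 on these days, beside -0.05, -0.06, -0.09 and -0.03 over all 7464 tested genes.

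**Figure D4:**
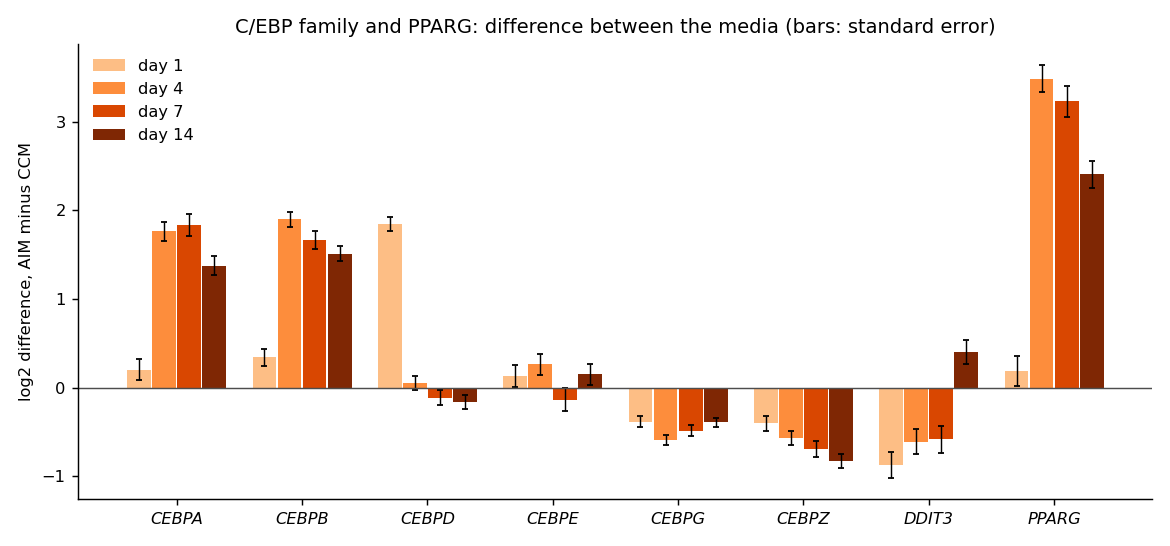
Log2 difference of AIM minus CCM (vertical axis) for the genes of the C/EBP family and PPARG on days 1, 4, 7 and 14. Bars are fitted differences averaged over the pools, from 0, with their standard error. CEBPD stands out on day 1, and CEBPA, CEBPB and PPARG from day 4 on. By their main probe sets, which are those drawn, CEBPG and CEBPZ are below 0 on every day.

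PPARG, the partner of C/EBPα in the second wave, passed on the same days as CEBPA. On day 1 its difference between the media was 0.19 ± 0.17 (adjusted p = 0.43). It was 3.49 ± 0.16 on day 4, 3.23 ± 0.18 on day 7 and 2.41 ± 0.16 on day 14 (adjusted p = 8.1e-21, 3.2e-18 and 4.9e-16). The day 7 difference was 2.42 with all 72 arrays and passed. All 5 tested PPARG probe sets were higher on day 4 (1.98 to 3.49), and 4 of 5 on days 7 and 14. The other one gave 0.82 (adjusted p = 0.099) and 0.85 (0.052). The AIM arrays of day 4 read 9.86 to 10.46 and the CCM arrays 5.84 to 7.85. PPARG rose in CCM too, by 0.90 ± 0.17 from day 1 to day 4 (adjusted p = 2.2e-05) and by 1.04 ± 0.17 from day 7 to day 14 (1.6e-04), up to 9.32 on the highest CCM array of day 14. These CCM steps did not pass with all 72 arrays (0.81 and 0.68, adjusted p = 0.030 and 0.26). Over the 36 group means r was 0.96 between CEBPA and PPARG, 0.93 between CEBPA and CEBPB, and 0.91 between CEBPB and PPARG. For CEBPD it was 0.31 with CEBPA, 0.35 with CEBPB and 0.33 with PPARG. These correlations describe groups that share pools, media and days and carry no test.

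Genes that C/EBPα or PPARγ are known to activate in fat cells, PPARG among them, were taken as a list of 23 names, of which 19 were tested. On day 1, 6 were higher in AIM, 0 lower and 13 did not pass, beside the shares of all probe sets given above. On days 4, 7 and 14 all 19 were higher, where 19.6%, 17.7% and 20.9% of all probe sets were. The median of the list was 0.40 on day 1, and 4.33, 4.76 and 3.62 on the later days. FABP4, a fatty acid carrier, was higher on day 1 already (2.50 ± 0.39, adjusted p = 2.4e-06) and reached 6.43 on day 4. ADIPOQ, which encodes adiponectin, was 0.72 ± 0.31 on day 1 (adjusted p = 0.069) and 6.76 ± 0.29 on day 4. DGAT2, which makes triacylglycerol, was 0.09 on day 1 and 5.89, 6.91 and 6.26 later. Lipase gene LIPE reached 5.70 on day 14.

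The 8 markers used for fat cells, 7 of which are also in the list above, moved with CEBPA and CEBPB. Their median mean level was 4.89 to 6.55 over the days in CCM and 5.03 in AIM on day 1, and 10.4, 10.6 and 10.8 in AIM on days 4, 7 and 14. In these whole cultures, more cells of a type and more RNA per cell cannot be told apart. The marker counts that follow stand beside the shares of all probe sets. On days 1, 4, 7 and 14 these were 10.4%, 19.6%, 17.7% and 20.9% higher in AIM and 17.6%, 29.5%, 27.4% and 27.7% lower. Of 7 tested stromal markers, 3, 1, 0 and 0 were higher in AIM and 2, 4, 5 and 4 lower on days 1, 4, 7 and 14, with medians of 0.28, -0.35, -0.57 and -0.37. THY1 had the largest differences of these from day 4 on (-1.53, -2.12 and -2.20), while those of the matrix gene DCN were -0.11 (adjusted p = 0.26), -0.84 and -1.06. Of 4 tested markers of cartilage and muscle none was higher, and 0, 1, 2 and 2 were lower, among them SOX9, a cartilage factor, with -0.47, -1.08 and -1.07 from day 4 on. Of 2 tested endothelial markers, 1 was lower in AIM on all days and the other passed on no day. The lower one was PECAM1 (-2.09, -1.75, -1.50 and -2.11). Of 2 tested leukocyte markers, neither passed on days 1, 4 and 7. On day 14 CD14, a monocyte marker, was higher (0.96, limma, adjusted p = 8.3e-10), and the other did not pass. The calls with all 72 arrays were fewer on these lists and those below. On days 1, 4, 7 and 14, 47, 73, 70 and 72 of 101 listed genes passed. Beside them stand 28.0%, 49.1%, 45.0% and 48.5% of all probe sets passing in either direction. With all 72 arrays 41, 65, 57 and 63 calls of listed genes were kept, none changed sign and 0 were gained. Of all probe sets, 1900, 3588, 3241 and 3829 were higher in AIM, and 1392, 3207, 2220 and 3414 with all 72 arrays. Those lower were 3228, 5412, 5016 and 5072, and 2276, 5011, 3812 and 4724 with all 72 arrays. Calls were thus fewer over all probe sets too. Of the genes named in the text, CEBPB, CXCL8 and TNFAIP6 lost the call of day 1, SGK1 and SOX9 that of day 4, DDIT3 and TRIB2 that of day 7, and EBF1 that of day 14. The part of these cell type markers in the C/EBP differences was not tested.

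Genes that act before or on the C/EBPs were followed as well. Of 17 upstream activators and co-activators, 11 were tested, with 3 higher and 1 lower in AIM on day 1, and 5 higher and 4 lower on each later day. Of all probe sets, 28.0%, 49.1%, 45.0% and 48.5% passed in either direction on days 1, 4, 7 and 14. KLF9, a glucocorticoid-induced zinc finger factor, was higher on all days (1.99, 1.80, 1.80 and 1.81). EBF1, a factor of preadipocyte commitment, was higher on all days too, with 1.31 on day 1 and 0.31 on day 14. KLF4, which in mouse preadipocytes activates Cebpb soon after induction, was -0.11 on day 1 (adjusted p = 0.50) and lower on days 4, 7 and 14 (-2.30, -1.69 and -1.85). STAT5A, a mediator of growth hormone signals, was 0.05 on day 1 (adjusted p = 0.64) and 1.48 higher on day 4, and SREBF1, a regulator of lipid synthesis, was higher by 1.19, 1.63 and 1.43 from day 4 on.

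Of 18 partners and inhibitors of the C/EBPs, 17 were tested. At days 1, 4, 7 and 14, those higher in AIM numbered 5, 4, 3 and 6, and those lower 5, 5, 6 and 2. Those passing either way, 10, 9, 9 and 8 of 17, stand beside 28.0%, 49.1%, 45.0% and 48.5% of all probe sets, and with all 72 arrays 4 in place of 9 passed on day 7. RUNX1T1, a co-repressor that restrains C/EBPβ in mouse preadipocytes, was lower on all days, from -1.04 on day 1 to -2.01 on day 14. TRIB2, a pseudokinase that directs C/EBPα to degradation, was higher on day 1 (1.37) and lower on days 4 and 7 (-1.37 and -0.98), with 0.18 on day 14 (adjusted p = 0.30). TRIB3, a stress-induced relative, was lower on days 1, 4 and 7 (-0.55, -0.71 and -0.77), as DDIT3 was. FOXO1, a factor held back by insulin signals, was higher on all days (1.23, 1.23, 0.92 and 0.82). Of 10 kinases and cyclins that act on C/EBP proteins, 5 were tested, and over the 4 days 1, 1, 1 and 2 were higher while 3, 2, 1 and 1 were lower, beside the same shares of all probe sets. MAPK3, which encodes ERK1, was lower on all days (-0.44, -1.24, -1.20 and -1.38), and CCND3 was higher on all days (0.70, 0.37, 0.51 and 0.74).

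Genes known to answer glucocorticoid or cAMP were tested for 15 of 16 names. Over the 4 days 7, 8, 8 and 9 of them were higher in AIM, and 1, 2, 1 and 2 were lower, beside 10.4%, 19.6%, 17.7% and 20.9% of all probe sets higher and 17.6%, 29.5%, 27.4% and 27.7% lower. Those passing on days 4, 7 and 14 numbered 6, 5 and 7 in place of 10, 9 and 11 with all 72 arrays. FKBP5, a chaperone gene with glucocorticoid receptor sites, was higher by 2.66, 3.65, 3.37 and 3.21. The serum- and glucocorticoid-regulated kinase gene SGK1 was 3.09 higher on day 1 and then lower (-0.49 on day 4, -0.44 with an adjusted p of 0.019 on day 7 and -0.71 on day 14), the only one named of this list that, like CEBPD, was higher in AIM on day 1 and on no later day. Other named genes of the list, PER1, TSC22D3, ZBTB16 and CRISPLD2, were higher on all 4 days.

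Inflammation and acute phase genes, in part targets of C/EBPβ and C/EBPδ, were split. Of 21 names 13 were tested, and over the 4 days 4, 8, 7 and 6 were higher in AIM, while 2, 4, 3 and 4 were lower, beside the same shares of all probe sets. PTX3, an acute phase pentraxin, was most different on day 1 (2.94) and 1.99, 1.94 and 1.69 later. CXCL8, a neutrophil chemokine, was 1.12 on day 1 and 4.00, 4.13 and 4.89 later, while CCL2, a monocyte chemokine, was lower on all days (-1.96, -3.31, -2.73 and -1.69). TNFAIP6, a hyaluronan-binding inflammation gene, was 0.98 higher on day 1, and 3.53, 3.83 and 3.06 higher later. Complement gene C3 was 1.60 higher on day 4 and lower on day 14 (-3.09).

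The genes whose group means ran most like those of a C/EBP gene were named by Pearson's r over the 36 groups. For CEBPA they were UNC119, ASPH, CD36, MGST1 and DENR (r = 0.97), of which CD36, the fatty acid transporter, belongs to the target list above. For CEBPB they were BTG1, SNRK, TNFAIP6, ABCA1 and SIK2 (r = 0.97 to 0.98). For CEBPD they were ALG13, OMD, TBX15, KLHL24 and TLR4 (r = 0.84 to 0.88). The differences between the media of these last 5 were largest on day 1 (0.71, 2.19, 0.98, 0.86 and 3.06), which restates their choice by likeness. On days 4, 7 and 14 those of ALG13, TBX15 and KLHL24 were between -0.13 and 0.13, while OMD gave -0.44, -0.46 and -0.13 and TLR4 gave 0.74, 0.78 and 0.44.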

How the data were processed

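RNA of 72 cultures was measured on the porcine Affymetrix Snowball array, with 500 ng of RNA per array. Scans were made with GCOS (1.1.1). The authors then ran RMA in Expression Console, which corrects background, normalizes across arrays and gives 1 summary for each probe set, and deposited log2 intensity values, which were used here without rescaling. RMA can draw low signals together. This was not tested for the second CEBPA probe set, which was above the background controls on 62 of 72 arrays. The array medians were between 3.95 and 4.12 and the background controls between 3.13 and 3.67. The number of arrays limits the precision.

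Probe sets were named from the platform annotation, with 446 symbols updated through RefSeq and 142 names dropped where they conflicted with the study's tables. Tests covered the 18335 probe sets (7464 genes) with an SD over 0.25 and a signal above the array median on 8 or more arrays. In R (4.3.3), limma (3.58.1) took 68 arrays and gave each of the 36 groups a mean, with the 8 culture lines as a random block (duplicateCorrelation, correlation 0.0258) and eBayes. Contrasts weighted pools equally. Benjamini-Hochberg adjustment ran over all tested probe sets, separately for each comparison. To pass, an adjusted p had to be under 0.01, as in the study's methods. The fit was also run on simulated arrays with known differences between the media on day 1. These had no culture line effects, and comparisons of breed, tissue or single pools were not checked in this way. Exact permutation tests ran in Python (3.11.15) with scipy (1.17.1).

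Named genes are the 3 C/EBP genes, their family, PPARG, up to 6 genes with the largest passing differences of each list, and the 5 most alike in group means. These genes and lists were chosen with earlier results of these data known. Arrays of a pool with the same replicate number were treated as a culture line across days and media. The labels give the number alone, so this link is an assumption. The columns of the authors' comparisons were not used as results.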

Additional observations from a re-analysis of the deposited data

Results flagged for a closer look

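Of 27 sets of 7 or 8 arrays of one gene, medium and day, 1 held an array far from the others, and chance flags about 1 in 20. It was DL FS replicate 1 in AIM on day 1, where CEBPA read 5.64 and the next array read 6.14.

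Signals of C/EBP genes also appeared in the arrays left out of the main comparisons, which enter only the values given with all 72 arrays. The array labelled AS FP CCM day 7 replicate 2 read 8.69 for CEBPA and 10.20 for CEBPB, where the highest of the 7 other CCM arrays of that day read 6.91 and 8.55. The array labelled DL FS CCM day 1 replicate 2 read 6.42 for CEBPA, 8.65 for CEBPB and 8.69 for CEBPD, and the highest of the 7 others read 6.32, 8.13 and 7.41. For their counterparts, the array labelled AS FP AIM day 7 replicate 2 read 6.62 for CEBPA and 8.45 for CEBPB, under all 7 other AIM arrays of that day, and the array labelled DL FP day 0 replicate 2 read 7.75 for CEBPB and 6.90 for CEBPD, under all 7 others of day 0. These are the arrays whose labels conflict with the study's tables.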

How the results depend on the processing

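With 818 alternative values for 49 tested differences of the 3 genes, 765 kept direction and call, 28 lost the call, 2 gained it and 23 changed sign, and the 23 were all of differences that did not pass. Between the media, CEBPB on day 1 was 0.24 with all 72 arrays and 0.30 on its other probe set, both without a call, and 0.29 to 0.39 without single cultures. CEBPA on its other probe set was 0.14 on day 4 and 0.093 on day 7, without a call. Without single cultures, CEBPA was 0.14 to 0.24, 1.73 to 1.80, 1.63 to 1.91 and 1.30 to 1.46 on days 1, 4, 7 and 14, CEBPB was 1.82 to 1.97, 1.61 to 1.71 and 1.47 to 1.56 from day 4, and CEBPD was 1.81 to 1.88, 0.01 to 0.11, -0.17 to -0.05 and -0.21 to -0.11. With no replicate block, that is without pairing arrays by culture line, the day 1 differences were 0.21, 0.34 and 1.85 for CEBPA, CEBPB and CEBPD, and no call changed.

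Changes of sign with all 72 arrays were, for CEBPA, the response change from day 4 to 7 (-0.49) and 7 to 14 (0.11) and the AIM steps to day 7 (-0.055) and 14 (0.23), and for CEBPB the response change to day 14 (0.30) and the last step in AIM (0.20) and CCM (-0.093). Without single cultures the sign changed for the CEBPA response change from day 4 to 7 (-0.012 without AS FP replicate 1, up to 0.12 otherwise), the CEBPA step to day 1 in AIM (-0.065 without AS FS replicate 2, up to 0.15), and the last AIM step of CEBPA (-0.13 to 0.11, above 0 without AS FP replicate 1), of CEBPB (-0.11 to 0.051, above 0 without AS FP replicate 1 and, at 0.045, without DL FP replicate 1) and of CEBPD (-0.0061 without DL FP replicate 1, up to 0.12). The second CEBPB probe set gave 0.074 for its last AIM step. The second CEBPA probe set gave -0.043 and 0.22 for the later response changes, -0.11 and 0.00 for the later AIM steps, 0.021, -0.065 and -0.22 for the CCM steps to days 1, 7 and 14, and -0.048 and -0.018 for AS minus DL in AIM on days 4 and 14. With all 72 arrays, 4 instead of 9 inhibitors passed on day 7, and 6, 5 and 7 instead of 10, 9 and 11 glucocorticoid and cAMP genes on days 4, 7 and 14. The cause was not tested. With 4 arrays or fewer per breed or tissue and day, a missed threshold does not show that levels were alike.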

Other observations

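In the RefSeq annotation of Sscrofa11.1, CEBPA lies between the coding genes SLC7A10, an amino acid transporter, and CEBPG. These neighbours were looked at after the values of CEBPA were known. SLC7A10 was lower in AIM on days 1, 4, 7 and 14 (-0.71, -2.01, -1.19 and -1.23, limma, adjusted p between 7.0e-16 and 9.4e-05), and CEBPG was lower too by its main probe set, as given above. From day 4 on both coding neighbours of CEBPA differed by these probe sets in the direction opposite to it. The second CEBPG probe set did not pass on those days (-0.19, -0.02 and -0.23). CEBPB lies between TMEM189 and PTPN1. TMEM189, which acts in ether lipid synthesis, was higher in AIM by 0.50, 0.63, 0.77 and 1.06, and PTPN1, a phosphatase of insulin signalling, by 0.23, 0.34 and 0.46 on days 4, 7 and 14. With 49.1% of all probe sets passing on day 4, calls of neighbours are common in these data, and no dependence between neighbours was tested.

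PPARG differed between the tissues in CCM, where CEBPA gave no call. FP exceeded FS by 1.16, 1.28 and 1.14 on days 4, 7 and 14 for PPARG (adjusted p = 0.0028, 0.0061 and 0.0042), and by 0.37, 0.20 and 0.30 for CEBPA (adjusted p = 0.56, 1 and 0.65). The PPARG calls were lost with all 72 arrays as labelled (1.16, 2.00 and 1.14, adjusted p = 0.67, 0.018 and 0.59). No left-out array is of day 4 or 14, so the PPARG differences of these days stayed the same. Whether the tissue difference itself differed between the genes was not tested.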
